A study of Triticum turgidum subsp. durum with 24 samples.

Results

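The comparison describes endosperm of durum wheat (Triticum turgidum subsp. durum) at 30 days post anthesis (dpa) against 18 dpa, over a gap of 12 days. It used 6 of the 24 libraries of a developmental series of 8 timepoints from 6 to 30 dpa, namely the 3 libraries of 30 dpa and the 3 of 18 dpa, chosen by their labels, and all 44,240 genes that passed a filter on low counts out of 66,559 transcripts listed. Both groups were wild-type (WT) plants of the variety Kronos with no treatment, grown in the same controlled environment rooms. A 30 dpa library pooled 3 endosperms of a spike, and an 18 dpa library pooled 4. Replicates of a timepoint came from independent plants, but a plant could give spikes to several timepoints, so the groups may share plants in a way the labels do not show. The whole dissected endosperm was sampled, so fewer cells of a type and less RNA per cell cannot be told apart.

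Cereal endosperm is a storage tissue in which starch and protein are laid down during grain filling, before the starchy cells die and the grain dries. Starch synthesis begins with ADP-glucose, which ADP-glucose pyrophosphorylase makes largely in the cytosol of cereal endosperm and the Brittle1 transporter carries into the amyloplast. There, starch synthases and branching enzymes build amylopectin, granule-bound starch synthase makes amylose, and isoamylases trim the branches. Degradation uses β-amylases, which release maltose, debranching enzymes, and the dikinases and phosphatases that add and remove phosphate on the granule.

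Estimated counts totalled 56,267,817 to 115,800,049 per library at 30 dpa, where replicate 3 was the deepest, and 56,427,025 to 64,861,415 at 18 dpa. Libraries of a timepoint correlated at 0.970 to 0.979 on log2 CPM (counts scaled to the library total) at 30 dpa and at 0.980 to 0.986 at 18 dpa, across genes, which are not independent replicates. Correlations between the timepoints were 0.928 to 0.963, the highest with 30 dpa replicate 3. The 10 most abundant transcripts took 45.4% ± 2.06 of TPM (a measure of transcript share that allows for transcript length) at 30 dpa and 38.2% ± 3.85 at 18 dpa (SD, n = 3 each), and between 19,736 and 21,484 genes exceeded 1 TPM at 30 dpa, against 21,840 to 24,280 at 18 dpa. TPM is a share of each library, and the median gene tested was 0.35 lower at 30 dpa on the log2 scale of TPM. Whether most transcripts also fell per endosperm was not tested. Fold changes below come from edgeR after TMM scaling, on which the median is 0, so the TPM ratio and the fold change of a gene can differ in size and in sign. Their standard errors and p-values come from 1 model of all 24 libraries. They therefore carry the spread at the other timepoints too, and not only that of the 6 libraries compared.

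Of the genes tested, 2915 were higher at 30 dpa (6.59% of those tested) and 3180 were lower (7.19%), at an adjusted p of at most 0.05 and a fold change over 1.5 in edgeR's quasi-likelihood test. At an absolute log2 fold change over 1.5, these numbers were 1421 (3.21%) and 1811 (4.09%). A gene that was not called may still have changed. In simulated data the same edgeR test called 22 of 100 genes changed 2-fold and 77 of 100 changed 4-fold. The median absolute log2 fold change was 1.47 among the genes that rose and 1.74 among those that fell, and 342 rose and 556 fell at least 16-fold. The split between rising and falling genes depended on scaling: 47.8% of the called genes rose with TMM factors, but 9.09% did so when only library totals were used, with 1182 rising and 11,821 falling. On that scale the median log2 fold change of all genes was -0.54, and 1173 of the rising and 3180 of the falling genes were called the same way in both fits. In the same model, 1363 genes rose (3.08% of those tested) and 3169 fell (7.16%) at 30 against 20 dpa, whereas 92 rose (0.208%) and 2 fell (0.00452%) at 20 against 18 dpa. These comparisons share libraries, and their counts are given only side by side.

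**Figure D1:**
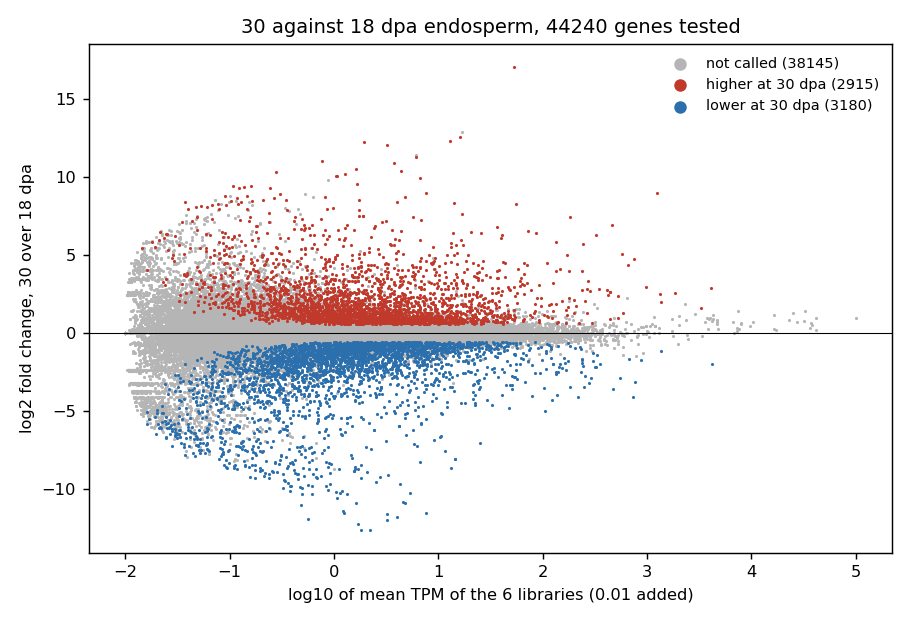
Log2 fold change of 30 over 18 dpa (vertical axis) against the log10 of the mean TPM of the 6 libraries (horizontal axis), 1 point per gene tested. Red points are the 2915 genes higher at 30 dpa, blue points the 3180 that were lower, and grey points were not called.

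The genes that rose made up 6.97%, 7.52% and 5.28% of TPM in 30 dpa replicates 1, 2 and 3, against 2.07%, 2.02% and 2.28% at 18 dpa. Those that fell made up 0.948%, 0.921% and 1.42% at 30 dpa, against 4.81%, 5.27% and 5.64% at 18 dpa. These shares describe genes chosen by the same contrast and carry no test. In both sets 30 dpa replicate 3 lay nearest to 18 dpa, and the means at 20 dpa were 3.85% ± 1.33 for rising and 3.74% ± 0.671 for falling genes (SD, n = 3). Without that replicate, 2844 genes rose and 2900 fell.

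Falling genes were relatively many among transcripts that were abundant over the whole series. Among those abundant at the timepoints compared, the balance depended on which timepoint ranked them. Of the 1167 genes with a mean over 100 TPM in the 24 libraries, 146 fell (12.5%) and 43 rose (3.68%). Over all genes tested, 7.19% fell and 6.59% rose. Of the 100 most abundant transcripts at 18 dpa, 8 fell and 4 rose, and of the 100 most abundant at 30 dpa, 2 fell and 20 rose. At 18 or 30 dpa, 74 falling and 82 rising genes averaged at least 100 TPM. These sets were chosen on the levels being compared and carry no test. Among the 17,531 genes at up to 1 TPM, 848 fell (4.84%) and 1001 rose (5.71%). A set of 27 genes had 0 counts in every 18 dpa library and at least 10 in every 30 dpa library. The opposite pattern, with 0 counts throughout 30 dpa and at least 10 in every 18 dpa library, was found for 107 genes.

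Rising and falling genes lay in both genomes in like proportions. The A genome had 1447 rising genes of 21,647 tested (6.68%) and the B genome 1417 of 21,557 (6.57%), while 1630 (7.53%) fell in A and 1472 (6.83%) in B. Among chromosomes, the share that rose was 8.1% on 1A and between 5.45% and 7.35% on the other 13, and the share that fell ran between 6.24% on 6B and 8.15% on 7A. Windows of 1 Mb on the Svevo v1 assembly were then scanned after their values had been seen, with no test. Of 9109 windows that held a tested gene, 5 held at least 5 falling genes and 2 at least 5 rising genes. On 2A, between positions 26,000,001 and 27,000,000, 9 of 21 tested genes fell and 0 rose, and those 9 summed to 0.125 ± 0.119 TPM at 30 dpa and 17.2 ± 8.45 TPM at 18 dpa (SD, n = 3 each). Another window on 2A, from 32,000,001 to 33,000,000, held 7 rising and 0 falling genes of 18, with a sum over the rising genes of 26.9 ± 8.43 TPM at 30 dpa and 11.9 ± 1.94 TPM at 18 dpa. On 1B, between 596,000,001 and 597,000,000, 5 of 13 genes rose and 1 fell, and the sum of the rising genes was 144 ± 69.4 TPM at 30 dpa and 28.4 ± 4.45 TPM at 18 dpa. Such neighbours can be near-identical copies, between which pseudoalignment may split reads.

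No table used here pairs gene identifiers with products outside the starch list, so 4 transcripts are named by identifier. They had the largest fold changes or TPM differences among called genes within set limits. The limits were 10 TPM or more at a timepoint, 10 or more counts in all 6 libraries and no overlap in TMM-scaled CPM. Steeper falls lay outside these limits, to a log2 fold change of -10.3 in a window on 7A. TRITD5Bv1G092570 (5B, 272,623,293 to 272,623,715) had 3890, 1762 and 1834 TPM at 30 dpa, against 14.5, 5.46 and 0.987 TPM at 18 dpa, a log2 fold change of 8.99 (SE 1.09, adjusted p = 0.000305). It was at 0 TPM in all libraries of 6 to 15 dpa and averaged 54.4 ± 39.9 TPM at 20 dpa. TRITD1Bv1G213590 (1B, 644,969,977 to 644,970,793) had 5702, 6945 and 7686 TPM at 30 dpa and 1769, 1185 and 1235 TPM at 18 dpa, a log2 fold change of 2.86 (SE 0.65, adjusted p = 0.00473). Both transcripts were abundant at 30 dpa, and the lack of overlap between the timepoints was a condition of their choice. TRITD7Bv1G149290 (7B, 472,054,930 to 472,057,250) showed the opposite pattern, with 0.444, 0.217 and 0.561 TPM at 30 dpa and 14.9, 20.8 and 26.7 TPM at 18 dpa, a log2 fold change of -5.16 (SE 0.60, adjusted p = 8.91e-06). TRITD1Av1G019270 (1A, 40,677,934 to 40,678,421) had 313, 354 and 2905 TPM at 30 dpa, against 7711, 7918 and 5937 TPM at 18 dpa, a log2 fold change of -2.01 (SE 0.60, adjusted p = 0.0275). Here 30 dpa replicate 3 lay between the other replicates and 18 dpa, and the call was lost without 30 dpa replicate 1 or 2 or 18 dpa replicate 1 or 2, at log2 fold changes of -1.93 to -1.55.

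The starch-related genes were read beside all genes tested. Of 118 listed genes in 8 categories, 117 were tested, 14 rose (12%, against 6.59% of all genes) and 12 fell (10.3%, against 7.19%), and their median log2 fold change was -0.17, against 0 over all genes. Of the rising genes, 7 were in degradation and 3 in amylopectin synthesis, and of the falling ones, 5 were in amylopectin synthesis and 4 in ADP-glucose metabolism. With library totals only, 5 starch-related genes rose, all of them in degradation, and 57 fell.

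**Figure D2:**
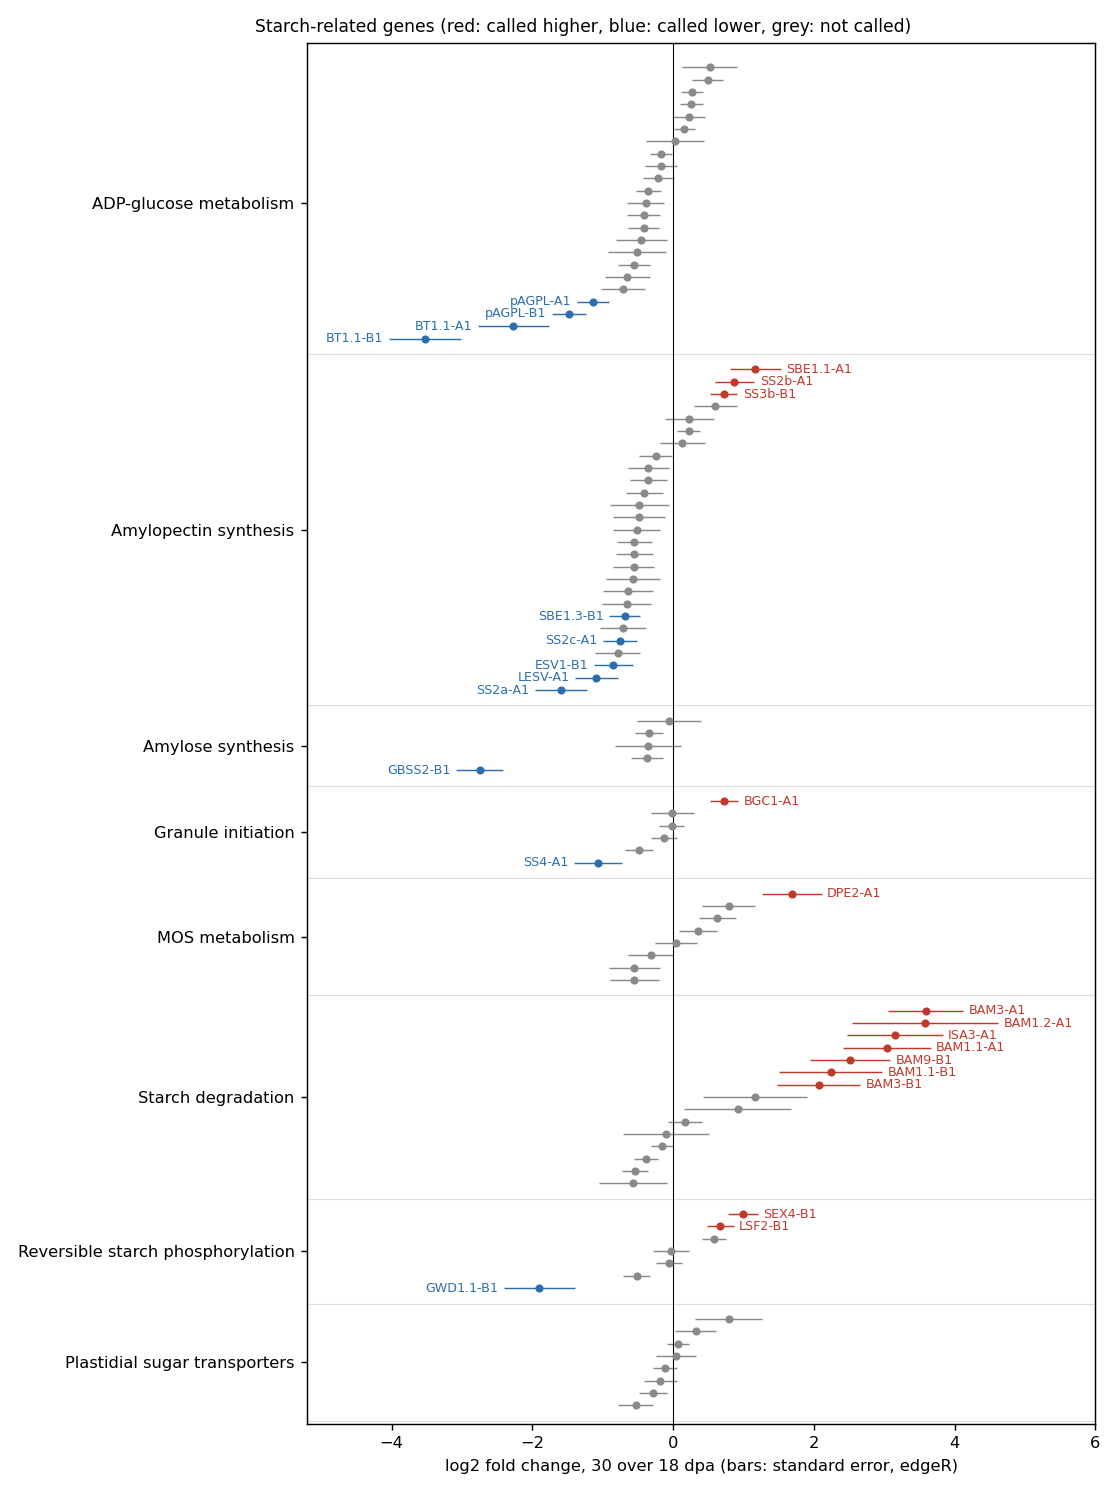
Log2 fold change of 30 over 18 dpa (horizontal axis, bars are the standard error) for starch-related genes that were called or averaged 1 TPM or more at either timepoint, grouped by category. All 7 called degradation genes lie to the right of 0, and all 4 called ADP-glucose genes lie to the left.

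In ADP-glucose metabolism, 4 of 23 genes fell (17.4%, against 7.19% of all genes) and 0 rose, with a median log2 fold change of -0.39. With library totals only, 16 fell and 0 rose, and with limma on log2(TPM + 0.1), 12 fell and 0 rose. The steepest change was in Brittle1, the amyloplast transporter of ADP-glucose. BT1.1-B1 had 16.3, 6.15 and 13.3 TPM at 30 dpa and 159, 171 and 256 TPM at 18 dpa, which was 11.6-fold lower (log2 -3.53, SE 0.51, adjusted p = 8e-05). BT1.1-A1 had 52.5, 20.1 and 44.5 TPM at 30 dpa and 224, 227 and 352 TPM at 18 dpa, 4.84-fold lower (log2 -2.27, SE 0.51, adjusted p = 0.00435). The groups did not overlap for either copy, and 30 dpa replicate 2 was the lowest in both. At 20 dpa BT1.1-B1 still averaged 136 ± 66.8 TPM and BT1.1-A1 210 ± 83.5 TPM (SD, n = 3).

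The plastidial large subunit of ADP-glucose pyrophosphorylase also fell in both copies. pAGPL-A1 had 6.71, 6.75 and 7.89 TPM at 30 dpa against 19.5, 21.6 and 22.8 TPM at 18 dpa (log2 -1.14, SE 0.23, adjusted p = 0.00153). pAGPL-B1 had 0.823, 1.14 and 0.781 TPM at 30 dpa against 3.39, 3.35 and 3.48 TPM at 18 dpa (log2 -1.48, SE 0.24, adjusted p = 0.000281). The cytosolic large subunit, the abundant form in this tissue, was not called. cAGPL-A1 averaged 409 ± 24.4 TPM at 30 dpa and 387 ± 27.3 TPM at 18 dpa (log2 0.52, SE 0.39, adjusted p = 0.421), and cAGPL-B1 475 ± 89.8 TPM at 30 dpa and 639 ± 73.3 TPM at 18 dpa (log2 0.03, SE 0.41, adjusted p = 0.993). The small subunit AGPS1-A1 averaged 364 ± 9.51 TPM at 30 dpa and 703 ± 120 TPM at 18 dpa, with no overlap in TPM, but its log2 fold change of -0.51 did not pass the test (SE 0.41, adjusted p = 0.451), though it did with library totals only (log2 -1.04, adjusted p = 0.0143).

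In amylopectin synthesis, 3 of 29 genes rose (10.3%, against 6.59% of all genes) and 5 fell (17.2%, against 7.19%), with a median log2 fold change of -0.48. With library totals only, 0 rose and 20 fell (median -1.04), and with limma on log2(TPM + 0.1), 0 rose and 17 fell. SS2a-A1, a soluble starch synthase that lengthens amylopectin chains, had 25.5, 19 and 27.8 TPM at 30 dpa and 85.2, 93 and 123 TPM at 18 dpa, 3.03-fold lower (log2 -1.60, SE 0.37, adjusted p = 0.00494). Its B copy had 83.7, 55.5 and 74.5 TPM at 30 dpa and 129, 136 and 171 TPM at 18 dpa, which did not pass the test (log2 -0.57, SE 0.39, adjusted p = 0.36) except with library totals only (log2 -1.13, adjusted p = 0.00652). Both copies of SS2a were thus lower in every 30 dpa library on the TPM scale, and the TMM-scaled fold change was called for the A copy alone. SS1-A1, another soluble synthase, averaged 59.4 ± 3.40 TPM at 30 dpa and 73.6 ± 5.91 TPM at 18 dpa and was not called (log2 0.13, SE 0.32, adjusted p = 0.847).

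A branching enzyme went the other way. SBE1.1-A1 had 222, 206 and 217 TPM at 30 dpa and 131, 142 and 107 TPM at 18 dpa, 2.24-fold higher (log2 1.17, SE 0.36, adjusted p = 0.0299). The call was lost with library totals only and with limma on log2(TPM + 0.1) or log2(TPM + 1). It was also lost in each fit that left out 1 library except that without 30 dpa replicate 2 (log2 fold change of 0.96 to 1.29 where lost). In the time course its mean was higher at each timepoint than at the one before, and it was 143 ± 18.6 TPM at 20 dpa (SD, n = 3). SBE2b-A1, the branching enzyme characteristic of cereal endosperm, averaged 111 ± 7.46 TPM at 30 dpa and 213 ± 45.3 TPM at 18 dpa and was not called (log2 -0.48, SE 0.42, adjusted p = 0.488) except with library totals only (log2 -1.03, adjusted p = 0.0206).

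The remaining calls among amylopectin genes were at lower levels or closer to the threshold. SBE1.3-B1, which lies near SBE1.2-B1 and SBE1.1-B1 on 7B, averaged 7.31 ± 1.14 TPM at 30 dpa and 16.2 ± 2.78 TPM at 18 dpa (log2 -0.69, adjusted p = 0.0328). ESV1-B1 and LESV-A1 encode starch-binding proteins that in Arabidopsis affect how granules are broken down. ESV1-B1 averaged 6.45 ± 1.54 TPM at 30 dpa and 15.9 ± 0.589 TPM at 18 dpa (log2 -0.85, adjusted p = 0.0407), and LESV-A1 1.04 ± 0.277 TPM at 30 dpa and 3.03 ± 0.195 TPM at 18 dpa (log2 -1.09, adjusted p = 0.0155). Of 3 synthase genes at about 2 TPM or less, SS2c-A1 fell (log2 -0.76, adjusted p = 0.0319) while SS2b-A1 (log2 0.87, adjusted p = 0.0412) and SS3b-B1 (log2 0.72, adjusted p = 0.014) rose. None of these calls was stable to leaving out libraries. LESV-A1 was lost without 30 dpa replicate 1 or 2, ESV1-B1 without 30 dpa replicate 2 or 3 or 18 dpa replicate 1 or 2, and SBE1.3-B1 without 30 dpa replicate 1 or 2 or 18 dpa replicate 2 or 3. SS3b-B1 was lost without 30 dpa replicate 2 or 18 dpa replicate 2 or 3, SS2c-A1 without any library but 30 dpa replicate 2, and SS2b-A1 without any but 30 dpa replicate 3. In those fits the log2 fold changes were -1.04 to -0.88 for LESV-A1, -0.84 to -0.66 for ESV1-B1, -0.73 to -0.52 for SBE1.3-B1, 0.61 to 0.66 for SS3b-B1, -0.80 to -0.67 for SS2c-A1 and 0.65 to 0.92 for SS2b-A1.

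Of the 5 genes of amylose synthesis, 1 fell (20%, against 7.19% of all genes) and 0 rose. GBSS2-B1, the granule-bound synthase of pericarp and green tissue rather than of starchy endosperm, had 0.208, 0.388 and 0.436 TPM at 30 dpa and 3.42, 3.33 and 2.67 TPM at 18 dpa, 6.72-fold lower (log2 -2.75, SE 0.33, adjusted p = 1.22e-05). The endosperm form was more than 100 times as abundant and not called. GBSS1-A1 had 396, 299 and 348 TPM at 30 dpa against 597, 563 and 660 TPM at 18 dpa (log2 -0.36, SE 0.47, adjusted p = 0.679), and GBSS1-A2 had 528, 455 and 478 TPM at 30 dpa against 659, 686 and 710 TPM at 18 dpa (log2 -0.06, SE 0.46, adjusted p = 0.968).

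These genes also served to check the tissue. All 12 genes taken as markers of starchy endosperm (both copies of GBSS1, AGPS1, cAGPL, BT1.1, SS2a and SBE2b) were detected. They summed to 2486 to 2993 TPM at 30 dpa and 4206 to 5356 TPM at 18 dpa. Of the 12, 3 were called lower and 0 higher, against 7.19% and 6.59% of all genes. The 12 are a part of the starch list, and its 118 genes summed to 14,083 ± 903 TPM at 30 dpa. At 18 dpa the 118 genes summed to 13,152 ± 1361 TPM (SD, n = 3 each). Within these sums, degradation genes gave 10,046 TPM at 30 dpa and 6634 TPM at 18 dpa. The marker of pericarp and green tissue was the 1 gene GBSS2-B1, whose range was 0.208 to 0.436 TPM at 30 dpa and 2.67 to 3.42 TPM at 18 dpa. The 15 genes of the AMY1 family, secreted α-amylases known for their part in germinating grain, summed to 0.151 to 0.92 TPM at 30 dpa and 0.315 to 0.62 TPM at 18 dpa, with 6 of the 15 at 0 counts in all 6 libraries. Only 6 of the 15 passed the count filter and were tested, and 0 of these were called. The list is not one of germination alone, because TRITD5Av1G228350 averaged 199 ± 98.5 TPM and TRITD5Bv1G227200 93.2 ± 42.2 TPM at 8 dpa (SD, n = 3), and both were at 0 TPM at 30 and 18 dpa. The part of adhering pericarp in the genes that fell was not tested.

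**Figure D3:**
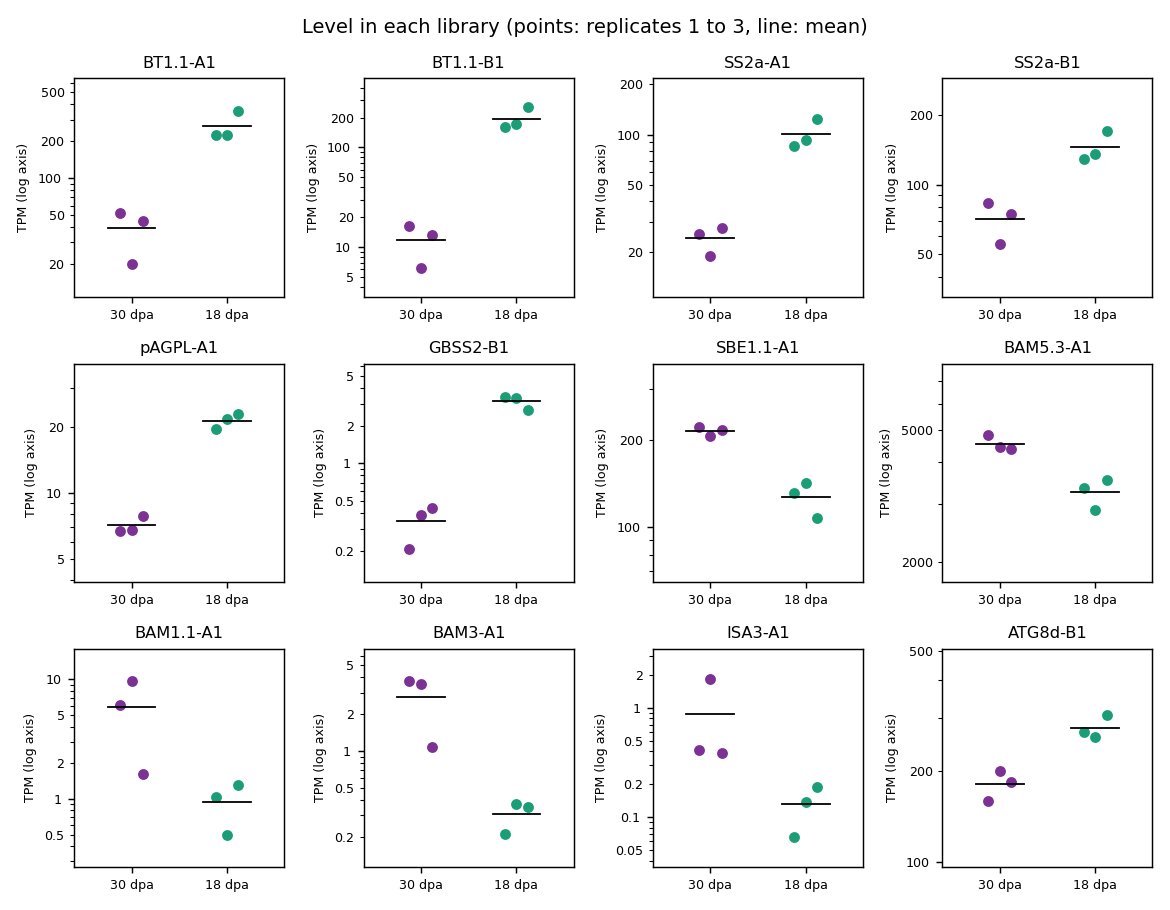
TPM of 12 genes in each library, on log axes, with 30 dpa on the left and 18 dpa on the right of each panel (points are replicates 1 to 3, lines are means). BT1.1, SS2a, pAGPL-A1, GBSS2-B1 and ATG8d-B1 are lower in all 3 libraries of 30 dpa, and SBE1.1-A1, BAM5.3-A1, BAM1.1-A1, BAM3-A1 and ISA3-A1 are higher.

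In starch degradation, 7 of 23 tested genes rose (30.4%, against 6.59% of all genes) and 0 fell, with a median log2 fold change of 0.17. The absence of falling genes depended on the fit, since 5 rose and 4 fell with library totals only, and 4 rose and 3 fell with limma on log2(TPM + 0.1). Of the 7, 3 averaged 1 TPM or more at either timepoint. BAM1.1-A1 and BAM3-A1 are β-amylases of the classes that act in plastids in Arabidopsis. BAM3-A1 had 3.71, 3.55 and 1.09 TPM at 30 dpa and 0.211, 0.368 and 0.351 TPM at 18 dpa, 12-fold higher (log2 3.59, SE 0.53, adjusted p = 9.98e-05). BAM1.1-A1 had 6.15, 9.72 and 1.6 TPM at 30 dpa and 1.03, 0.501 and 1.3 TPM at 18 dpa, 8.21-fold higher (log2 3.04, SE 0.62, adjusted p = 0.00182). For both genes 30 dpa replicate 3 was the lowest of its group and still above all libraries of 18 dpa. BAM1.1-B1 had 3.07, 5.88 and 1.08 TPM at 30 dpa and 0.921, 1 and 0.805 TPM at 18 dpa (log2 2.24, SE 0.73, adjusted p = 0.0417). This call was kept only without 30 dpa replicate 3 among the 6 fits that left out a library (log2 fold change of 1.67 to 2.36 where lost). It was also lost with library totals only and with limma on log2(TPM + 0.1).

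The other rising genes of degradation were low throughout. ISA3-A1, a debranching enzyme that acts in starch breakdown in Arabidopsis leaves, had 0.41, 1.84 and 0.383 TPM at 30 dpa and 0.0665, 0.139 and 0.187 TPM at 18 dpa (log2 3.15, SE 0.68, adjusted p = 0.00315). BAM9-B1, of a β-amylase class without catalytic activity in Arabidopsis, had 0.468, 0.378 and 0.198 TPM at 30 dpa and 0.0525, 0.0338 and 0.174 TPM at 18 dpa (log2 2.51, SE 0.57, adjusted p = 0.00433). The 30 dpa libraries lay above those of 18 dpa for both. BAM3-B1 had 1.55, 0.901 and 0.249 TPM at 30 dpa and 0.171, 0.271 and 0.443 TPM at 18 dpa (log2 2.07, SE 0.59, adjusted p = 0.0205), and BAM1.2-A1 averaged 0.173 ± 0.142 TPM at 30 dpa and 0.0173 ± 0.0113 TPM at 18 dpa (log2 3.58, SE 1.04, adjusted p = 0.0236). Both overlapped between the timepoints through 30 dpa replicate 3. BAM3-B1 lost its call without 30 dpa replicate 1 or 18 dpa replicate 1 or 2 (log2 fold change of 1.34 to 2.08), and BAM1.2-A1 without 30 dpa replicate 1 or 2 or 18 dpa replicate 2 or 3 (3.11 to 3.35). All 7 genes were called when 30 dpa replicate 3 was left out.

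Most transcripts of the degradation category came from BAM5.3, the abundant β-amylase of the grain. BAM5.3-B1 had 5963, 5315 and 4993 TPM at 30 dpa and 3132, 2977 and 3690 TPM at 18 dpa (log2 1.17, SE 0.74, adjusted p = 0.323). BAM5.3-A1 had 4818, 4433 and 4368 TPM at 30 dpa and 3349, 2871 and 3545 TPM at 18 dpa (log2 0.92, SE 0.76, adjusted p = 0.471). The timepoints did not overlap for either copy, but neither fold change was called. In the fit of the 6 libraries alone BAM5.3-B1 was called (log2 1.17, adjusted p = 0.0422), and with the replicate block it was not (adjusted p = 0.141). BAM5.3-A1 averaged 0.243 TPM and BAM5.3-B1 0.2 TPM at 6 dpa, and at 20 dpa the A copy was at 3769 ± 186 TPM and the B copy at 3919 ± 239 TPM.

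In reversible phosphorylation, 2 of 11 genes rose (18.2%, against 6.59% of all genes) and 1 fell (9.09%, against 7.19%). SEX4-B1, a glucan phosphatase, had 2.31, 3 and 2.45 TPM at 30 dpa and 1.26, 2.08 and 2.01 TPM at 18 dpa (log2 0.99, SE 0.21, adjusted p = 0.0024). LSF2-B1, also a phosphatase, overlapped in TPM, with 3.35, 4.33 and 3.94 TPM at 30 dpa and 2.66, 3.18 and 4.42 TPM at 18 dpa (log2 0.67, SE 0.19, adjusted p = 0.0177). Its call was lost without 30 dpa replicate 3 or 18 dpa replicate 1 or 2, at log2 fold changes of 0.58 to 0.67. Both phosphatases were uncalled when only library totals were used. GWD1.1-B1, a dikinase that adds phosphate, averaged 0.0798 ± 0.0306 TPM at 30 dpa and 0.393 ± 0.0758 TPM at 18 dpa (log2 -1.90, SE 0.51, adjusted p = 0.0147), a call lost without 30 dpa replicate 1 or 18 dpa replicate 1 (-1.68 to -1.64).

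Granule initiation had 1 rising and 1 falling gene of 9 (11.1% each, against 6.59% and 7.19% of all genes). BGC1-A1, which acts in forming the small B-type granules of wheat, had 12.6, 14.8 and 14.7 TPM at 30 dpa and 13, 11.7 and 9.41 TPM at 18 dpa (log2 0.72, SE 0.20, adjusted p = 0.0174), so the TPM values overlapped and the TMM-scaled CPM did not. The call was lost without 30 dpa replicate 3 or 18 dpa replicate 3 (log2 fold change of 0.51 to 0.63) and with library totals only. It was also lost with the 6 libraries alone, with the replicate block and with limma on log2(TPM + 0.1) or log2(TPM + 1). SS4-A1, a synthase that starts granules in Arabidopsis, had 0.126, 0.573 and 0.198 TPM at 30 dpa and 0.797, 0.916 and 0.681 TPM at 18 dpa (log2 -1.07, SE 0.34, adjusted p = 0.0392), and was lost without 30 dpa replicate 1 or 3 or 18 dpa replicate 1 or 2 (adjusted p of 0.103 to 0.157). In the metabolism of malto-oligosaccharides (MOS), 1 of 9 genes rose (11.1%, against 6.59% of all genes) and 0 fell. DPE2-A1, which in Arabidopsis processes maltose in the cytosol, had 1.06, 1.72 and 0.854 TPM at 30 dpa and 0.231, 0.493 and 0.829 TPM at 18 dpa (log2 1.69, SE 0.42, adjusted p = 0.00882), a call lost without 18 dpa replicate 1 (log2 1.37, adjusted p = 0.0509), with library totals only (1.13, adjusted p = 0.0517) and with limma on log2(TPM + 0.1) (1.15, adjusted p = 0.0686) or log2(TPM + 1) (0.54, adjusted p = 0.102). With TMM scaling, none of the 8 plastidial sugar transporters was called (against 13.8% of all genes), and their log2 fold changes ran between -0.53 and 0.79. With library totals only, 4 of them fell and 0 rose, and with limma on log2(TPM + 0.1), 2 fell and 0 rose.

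ATG8d-B1, the reference gene of the qRT-PCR in the study, differed between the scales. It had 159, 199 and 184 TPM at 30 dpa and 269, 258 and 307 TPM at 18 dpa, without overlap, while its TMM-scaled log2 fold change was -0.03 (SE 0.12, adjusted p = 0.924). With limma on log2(TPM + 0.1) it was -0.62 (adjusted p = 0.0229).

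**Figure D4:**
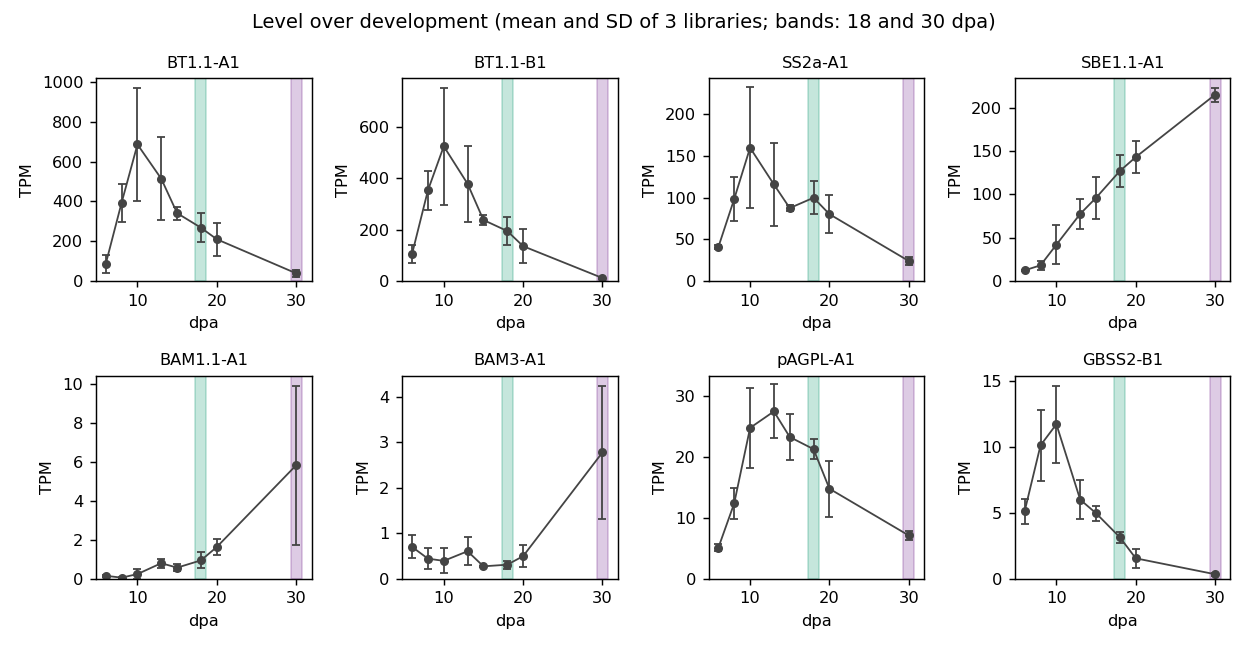
TPM of 8 genes (vertical axis, mean and SD of 3 libraries) against days post anthesis (horizontal axis), with bands at 18 and 30 dpa. BT1.1, SS2a-A1 and GBSS2-B1 are at their highest mean at 10 dpa, SBE1.1-A1 is highest at 30 dpa, and BAM1.1-A1 and BAM3-A1 have their highest means at 30 dpa with wide bars.

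The ratio of A to B homeologs within a library does not depend on the scaling of that library. Of 56 pairs, both copies were called in 4 and 1 copy in 15. In BAM1.1 and BAM3 both copies rose, and in BT1.1 and pAGPL both fell. Among all genes tested, 13.8% were called in either direction, but this is a share of single genes and not a background for pairs. Over the 41 pairs with both copies at 1 TPM or more, the median absolute difference between the log2 fold changes of the copies was 0.24, and 12 pairs differed by at least 0.5. The ratio of BT1.1-A1 to BT1.1-B1 was 3.22, 3.26 and 3.35 at 30 dpa and 1.41, 1.33 and 1.37 at 18 dpa. For SS2a it was 0.305, 0.343 and 0.373 at 30 dpa and 0.663, 0.684 and 0.72 at 18 dpa. The A copy thus retained more of its level than the B copy in BT1.1, and less in SS2a. SBE1.1 had ratios of 1.78, 1.7 and 1.7 at 30 dpa and 1.19, 1.21 and 1.07 at 18 dpa. BGC1, whose B copy is unplaced in the assembly, had ratios of 1.17, 1.16 and 1.13 at 30 dpa and 0.715, 0.624 and 0.818 at 18 dpa. DPE1, the plastidial disproportionating enzyme, had ratios of 0.531, 0.532 and 0.542 at 30 dpa and 0.741, 0.87 and 1 at 18 dpa. In each of these 5 pairs the ratios of the timepoints did not overlap, for a two-sided exact permutation p of 0.1, the smallest that 3 against 3 libraries can give (adjusted p = 0.228 over 41 pairs). Of the 41 pairs, 18 had ratios that did not overlap between the timepoints, so this was common among these pairs and not particular to those described. The share among homeolog pairs outside the starch list was not computed, so the 18 cannot be read as a trait of starch genes. AGPS1 and SBE2b were among those that overlapped. AGPS1 had ratios of 1.06, 1.13 and 0.989 at 30 dpa and 1.06, 1.16 and 1.06 at 18 dpa (exact permutation p = 0.5), and SBE2b 1.68, 1.92 and 1.9 at 30 dpa and 1.9, 1.8 and 1.78 at 18 dpa (exact permutation p = 0.9). Reads shared by homeologs are divided between them by the pseudoaligner, so the ratios rest on the reads that tell the copies apart.

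**Figure D5:**
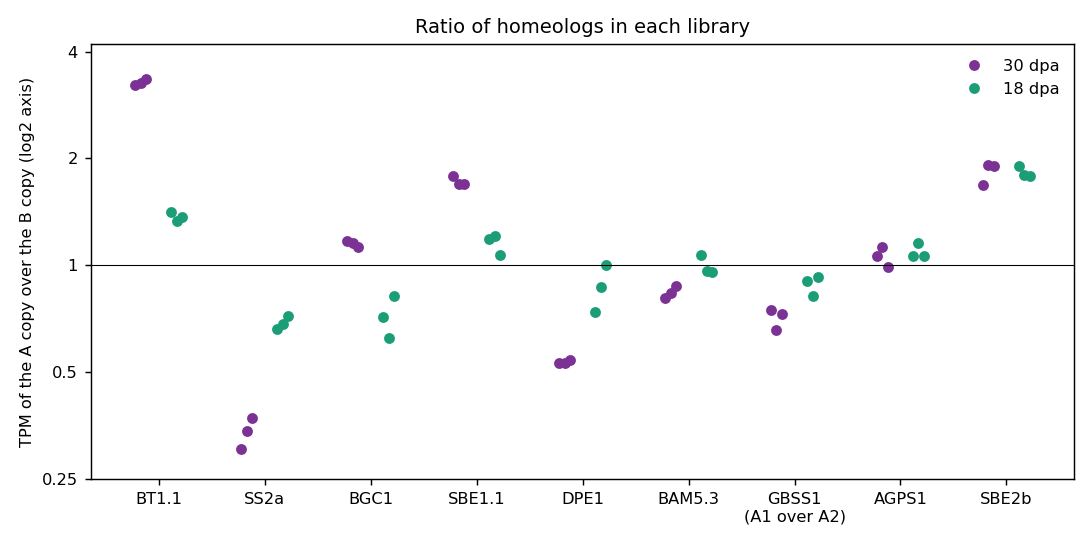
Ratio of the TPM of the A copy to that of the B copy (log2 axis) for 9 homeolog pairs, 1 point per library, with 30 dpa to the left of 18 dpa. For GBSS1 the ratio is of the copy on 7A to that on 4A. BT1.1, SBE1.1 and BGC1 are higher at 30 dpa, SS2a, DPE1, BAM5.3 and GBSS1 are lower, and AGPS1 and SBE2b overlap.

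Copy-specific oligonucleotides exist for a gene of 3 of these pairs, namely the qRT-PCR primers of the study, and they are shown because they mark stretches by which an assay reads a single copy. They target BAM5.3-A1 on 5A, GBSS1-A2 on 4A and BGC1-A1 on 4A, all letters being primer sequence in 5′ to 3′ direction.
BAM5.3-A1 forward: ctgcttacaacaccatactcaggaatgca
BAM5.3-A1 reverse: ccaccaactgattcaacagccgg
GBSS1-A2 forward: gtgctgacggtgagcccctactac
GBSS1-A2 reverse: gttgacgatgccggtgatgccc
BGC1-A1 forward: tggagctcctagtcgaagtccaacta
BGC1-A1 reverse: tctggtattccattttgagaatgagagcgg
The ratio of the copies for BAM5.3 was 0.808, 0.834 and 0.875 at 30 dpa and 1.07, 0.964 and 0.961 at 18 dpa, and for GBSS1 (A1 over A2) 0.75, 0.658 and 0.729 at 30 dpa and 0.905, 0.822 and 0.929 at 18 dpa. In both pairs the ratios did not overlap, again at an exact permutation p of 0.1 (adjusted p = 0.228). A copy-specific assay of these 3 genes therefore reads 1 member of a pair whose ratio did not overlap between 30 and 18 dpa.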

How the data were processed

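The authors pseudoaligned paired reads of poly-A selected libraries to the canonical Svevo v1 transcripts with kallisto (0.46.1 in the submitters' processing notes). The deposited estimated counts are not scaled between libraries, and the deposited TPM values are divided by effective transcript length, with the same sum in each library. The submitters' notes also name DESeq2. Canonical transcripts stood for genes.

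Counts were rounded, and a minimum of 10 counts in 3 or more of the 24 libraries was required (66.5% of transcripts listed). The quasi-likelihood F test of edgeR 4.0.16 in R 4.3.3 was run with TMM scaling on 1 model of all 24 libraries, with timepoint as the factor. Genes were called at a Benjamini-Hochberg adjusted p of at most 0.05 over all genes tested and a fold change over 1.5 (0.585 on the log2 scale). The methods of the study give an absolute log2 of 1.5, which was run as an alternative. TMM factors were 0.486 to 0.538 at 30 dpa and 0.664 to 0.826 at 18 dpa. A count of 0 allows an expected count as high as 3, for counting error only. The scripts were tested on simulated data, where edgeR made 1 false call and missed most of the 2-fold changes.

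The starch categories are those of the study, and ATG8d-B1 and 15 AMY1 genes were added. Values per library are given for called genes and for the main endosperm forms. Other genes are named by identifier, as 1 rising and 1 falling gene with the largest fold change and 1 of each with the largest TPM difference, among called genes with means of 10 TPM or more at a timepoint, 10 or more counts in all 6 libraries and no overlap in TMM-scaled CPM. Members, lists and tests were chosen with earlier results of these data known. Coordinates are from a Svevo v1 gene table, which matched 43,204 of the tested identifiers and holds no products, so lists by product keyword could not be used. Homeolog ratios were compared with exact permutation tests in scipy 1.17.1. Alternatives were DESeq2 1.42.0, its size factors, library totals only, 100 abundant transcripts left out, other filters and fold thresholds, the 6 libraries alone, a replicate block, limma 3.58.1 on log2(TPM + 0.1) or log2(TPM + 1), and each library left out. Fold changes of genes with low TPM are understated on the limma scale.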

Additional observations from a re-analysis of the deposited data

How the results depend on the processing

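The edgeR counts of 2915 rising and 3180 falling genes, and of 14 rising and 12 falling starch-related genes, changed with scaling and with the unit tested. Library totals alone gave 1182 and 11,821 genes and 5 and 57 starch-related genes. Limma, which changes test, unit and scaling together, gave on log2(TPM + 0.1) 1281 and 8527 genes and 4 and 43 starch-related genes, and on log2(TPM + 1) 910 and 5006 genes and 3 and 35 starch-related genes. A filter of 10 CPM left 1343 and 1592 genes, with 6 rising starch-related genes. An absolute log2 fold change over 1.5 left 1421 (3.21% of those tested) and 1811 (4.09%) genes and 8 and 5 starch-related genes. DESeq2 called 3673 and 3479 genes, of which 2860 and 3087 were also called by edgeR. Leaving out 1 library gave 1983 to 2844 rising and 2474 to 2900 falling genes, and 7 to 12 rising and 7 to 10 falling starch-related genes. Of these, the starch-related calls moved by over 1.5 times without 30 dpa replicate 1 (7 falling), 18 dpa replicate 1 (8 rising) or 18 dpa replicate 2 (7 rising).

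With the replicate block in the 6 libraries, 2223 genes rose and 1978 fell, as did 9 and 10 starch-related genes, against 2574 and 2490 for the 6 libraries without it. Deviations of same-numbered libraries correlated at -0.024, 0.148 and -0.314 across genes, so the numbers were not taken as pairs.

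Of the 30 called genes named, 11 were called in every alternative that tested them, other than the higher fold threshold. These were both copies of BT1.1 and of pAGPL, SS2a-A1, GBSS2-B1, BAM1.1-A1, BAM3-A1 and 3 of the 4 genes named by identifier, without TRITD1Av1G019270. Under the higher fold threshold, both copies of pAGPL are not called. BAM1.1-A1, BAM3-A1, TRITD5Bv1G092570 and TRITD1Bv1G213590 were each tested in 16 alternatives, and the other genes of this set in 17. None of the 30 changed sign in these alternatives. The losses of calls given gene by gene above do not list every alternative. Among genes uncalled in both the reported and the alternative fit, 40 changed sign in at least 1 alternative. A planned list by product keyword was not run, since no products were given.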
